A study of Mus musculus with 8 samples.

Results

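The collagen genes were examined in kidney RNA from diabetic mice treated with rFGF4 or with vehicle. They were taken from the deposited gene table by name, as every gene called *Col* followed by a type number, the letter a and a chain number, which gave 44 of the 55401 genes listed. By the known architecture of their products, 11 encode fibrillar chains, 6 the chains of type IV, 6 those of type VI, 2 the multiplexins, 1 type VII, 3 the short-chain network types, 9 the fibril-associated types (FACIT), 4 the transmembrane types and 2 other types.

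One poly(A) RNA library was made per mouse, from 4 mice given rFGF4 (numbered 1, 2, 3 and 5) and 4 mice labelled *db/db* model (numbered 2, 3, 4 and 5), here called vehicle-treated. The vehicle in the study's methods was PBS. rFGF4 is a form of human fibroblast growth factor 4, produced as a recombinant protein and altered so that it does not drive cell division; it was injected into the peritoneum. The sample labels name *db/db* mice, which lack a functional leptin receptor and are kept on the C57BLKS/J background, whereas the study's text describes C57BL/6 mice made diabetic with streptozotocin, and the files do not settle which were sequenced. All 8 mice were diabetic and the study used males, so no library shows the collagen genes of a non-diabetic kidney. For both models the study describes 1 mg/kg every other day over 8 weeks, but it does not tie this regimen, or an age, to the sequenced mice.

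Collagens are the main structural proteins of the extracellular matrix, built from 3 alpha chains wound into a triple helix. In the kidney, type IV forms the network of all basement membranes: a network of the *Col4a1* and *Col4a2* chains is found in every one of them, and a network of the *Col4a3*, *Col4a4* and *Col4a5* chains, made by podocytes, carries the mature glomerular filter. The fibrillar types I and III accumulate in the interstitium and in scarred glomeruli of the fibrotic kidney, where fibroblasts and pericytes are their main source.

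The genes of type IV lie in head-to-head pairs that are read outward from a common region, and the bases at these starts are shown because the members of a pair are compared with each other in what follows. On GRCm38, the annotated ends of *Col4a1* (chr8:11198423-11312826, minus strand) and *Col4a2* (chr8:11312805-11449287, plus strand) overlapped by 22 bases. *Col4a4* (chr1:82448423-82586849, minus strand) and *Col4a3* (chr1:82586921-82722059, plus strand) were separated by 71 bases, and *Col4a6* and *Col4a5* by 1308 bases on chromosome X. The last sequence is the 250 bases before the annotated start of *Col8a1* (chr16:57624258-57754737, minus strand), the member that passed the threshold described below. The sequences come from RefSeq promoter windows on GRCm38.p6, which were given for 35 of the 44 genes. Capitals mark GC boxes (GGGCGG or its complement CCGCCC, the motif bound by Sp1).

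Overlap of *Col4a1* and *Col4a2*, chr8:11312805-11312826, plus strand: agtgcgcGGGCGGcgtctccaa

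Bases between *Col4a4* and *Col4a3*, chr1:82586850-82586920, plus strand: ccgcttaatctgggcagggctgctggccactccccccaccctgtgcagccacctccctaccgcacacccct

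Before *Col8a1*, chr16:57754738-57754987, minus strand: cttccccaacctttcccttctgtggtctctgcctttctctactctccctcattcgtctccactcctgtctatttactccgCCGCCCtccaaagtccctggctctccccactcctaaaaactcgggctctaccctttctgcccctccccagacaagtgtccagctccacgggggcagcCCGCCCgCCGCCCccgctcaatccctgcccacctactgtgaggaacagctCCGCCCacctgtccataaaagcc

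The stretch before *Col8a1* held 4 GC boxes, the overlap of *Col4a1* and *Col4a2* held 1 and the bases between *Col4a4* and *Col4a3* held 0. Over whole windows, which run from before to just after each start, a GC box was present in 23 of 38 collagen windows (60.5%) and in 35.7% of all 32851 windows. The CCAAT box (CCAAT or ATTGG) was present in 34.2% of collagen windows and 37.4% of all windows, the TATA box (TATAAA or TTTATA) in 13.2% and 13.6%, and the AP-1 site (TGACTCA or TGAGTCA) in 2.63% and 5.20%. The 38 collagen windows came from 35 genes, and windows of a head-to-head pair can share bases, so they are not independent. Motifs may overlap each other, and a match is a description of the letters.

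Expression was deposited as FPKM, a measure scaled by exon length and by the mapped fragments of the library, so levels can be set beside each other between genes. The table held no counts, and the number of fragments behind a value is therefore unknown. Relative depth, with vehicle mouse 2 as 1, ran from 0.905 to 1.09 in the rFGF4 group and up to 1.12 in the vehicle group. Of the 15150 genes tested (0.5 FPKM or more in 4 or more libraries), limma gave 0 (0%) with an adjusted p under 0.05 and 700 (4.62%) with an unadjusted p under 0.05. The threshold, an unadjusted p under 0.05 with a change of at least 1.5-fold, was met by 231 genes (1.52%), 165 (1.09%) higher and 66 (0.436%) lower in rFGF4-treated mice. The groups did not overlap for 504 genes (3.33%). All differences below are rFGF4 minus vehicle on the log2(FPKM + 1) scale, which understates the change of genes near or below 1 FPKM. With 4 mice against 4, a two-sided exact permutation test cannot give a p below 0.0286, and where nothing states that libraries were prepared separately the tests measure only the spread between these 8 libraries.

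Libraries of rFGF4 mouse 1 and vehicle mouse 5 stood apart from the other 6 before any comparison of the groups. Macrophage markers (6 of 6 tested) summed to 1198 FPKM in rFGF4 mouse 1 and 1728 FPKM in vehicle mouse 5, against 80.3 to 428 FPKM in the other rFGF4-treated and 43.3 to 313 FPKM in the other vehicle-treated mice. Markers of fibroblasts and mural cells (9 of 10 tested) summed to 120 and 175 FPKM in these libraries, against 37.1 to 99.6 FPKM elsewhere. Not all members followed the sum: *Myh11*, a smooth muscle myosin, was lowest of the 8 libraries in rFGF4 mouse 1 and highest in vehicle mouse 3 (8.91 FPKM), and *Acta2*, smooth muscle actin, was lower in rFGF4 mouse 1 than in vehicle mouse 3 (45.5 FPKM) and rFGF4 mouse 2 (23.7 FPKM). Markers of the kidney tubule (8 of 8 tested) summed to 1242 and 1614 FPKM there, against 2081 to 2460 FPKM in the other 6, a sum made up mostly of *Umod* and *Slc34a1*. These libraries were the 2 lowest for 3 of the 8 markers (*Slc12a3*, *Slc34a1* and *Atp6v1g3*). *Umod* was higher in rFGF4 mouse 1 (839 FPKM) than in vehicle mice 2 and 4 (829 and 708 FPKM), and vehicle mouse 5 was not among the 2 lowest for *Slc12a1*, *Slc5a2*, *Lrp2* or *Aqp2*. Lymphocyte and lymph node markers (4 of 8 tested) summed to 113 FPKM in vehicle mouse 5 and 3.58 to 23.4 FPKM in the other 7. In bulk tissue, more cells of a type and more RNA per cell cannot be told apart. Kidney markers were present in every library: each of the tubule markers was at 12.7 FPKM or more, and podocyte markers (6 of 6 tested) summed to 66.6 to 97.7 FPKM with rFGF4 and 47.4 to 87.2 FPKM with vehicle. Endothelial markers (7 of 7 tested) summed to 29.7 to 40.7 FPKM with rFGF4 and 33.3 to 50.2 FPKM with vehicle, urothelial markers (5 of 6 tested) to 8.75 to 141 and 6.05 to 71.6 FPKM, and red blood cell markers (5 of 5 tested) to 120 to 2657 and 1139 to 4325 FPKM. The urothelial sum was mostly the keratins *Krt20* (97.9 FPKM in rFGF4 mouse 1) and *Krt5* (38.4, 42.2 and 44.8 FPKM in rFGF4 mice 1 and 2 and vehicle mouse 5). The uroplakins, which define that epithelium, were highest in vehicle mouse 2 (*Upk1a* 12.9, *Upk1b* 5.70 and *Upk2* 6.89 FPKM) or vehicle mouse 3 (*Upk3a* 5.80 FPKM), against 0.402 to 2.19 FPKM in rFGF4 mouse 1. The extraction text of the labels speaks of adipose tissue, but the adipose-defining genes *Adipoq*, *Plin1*, *Cfd* and *Lep* were at or below 0.186 FPKM in all 8 libraries and at 0 in 5 to 7 of them. With *Car3*, the 1 tested gene of the 5, the adipose list summed to 3.21 to 8.21 FPKM with rFGF4 and 0.873 to 6.61 FPKM with vehicle.

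Of the 44 collagen genes, 22 were expressed highly enough to be tested and 22 were not. Under rFGF4, 1 of the 22 tested genes, *Col8a1*, passed the threshold (higher), beside 1.52% of all tested genes. None passed at an adjusted p under 0.05 (0%), 1 had an unadjusted p under 0.05 (4.62% of all tested genes), and for 0 of the 22 did the groups fail to overlap (3.33% of all tested genes). The log2 difference was above 0 for 16 genes and below 0 for 6, with a median of 0.20 against 0.09 over all tested genes. The share above 0 was 72.7%, beside 67.1% of all tested genes. This pattern moved with single libraries: the median was -0.10 without rFGF4 mouse 1 (8 genes above 0, 14 below), 0.05 without vehicle mouse 4 (12 above, 10 below), 0.07 without vehicle mouse 2 and 0.51 without vehicle mouse 5.

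**Figure D1:**
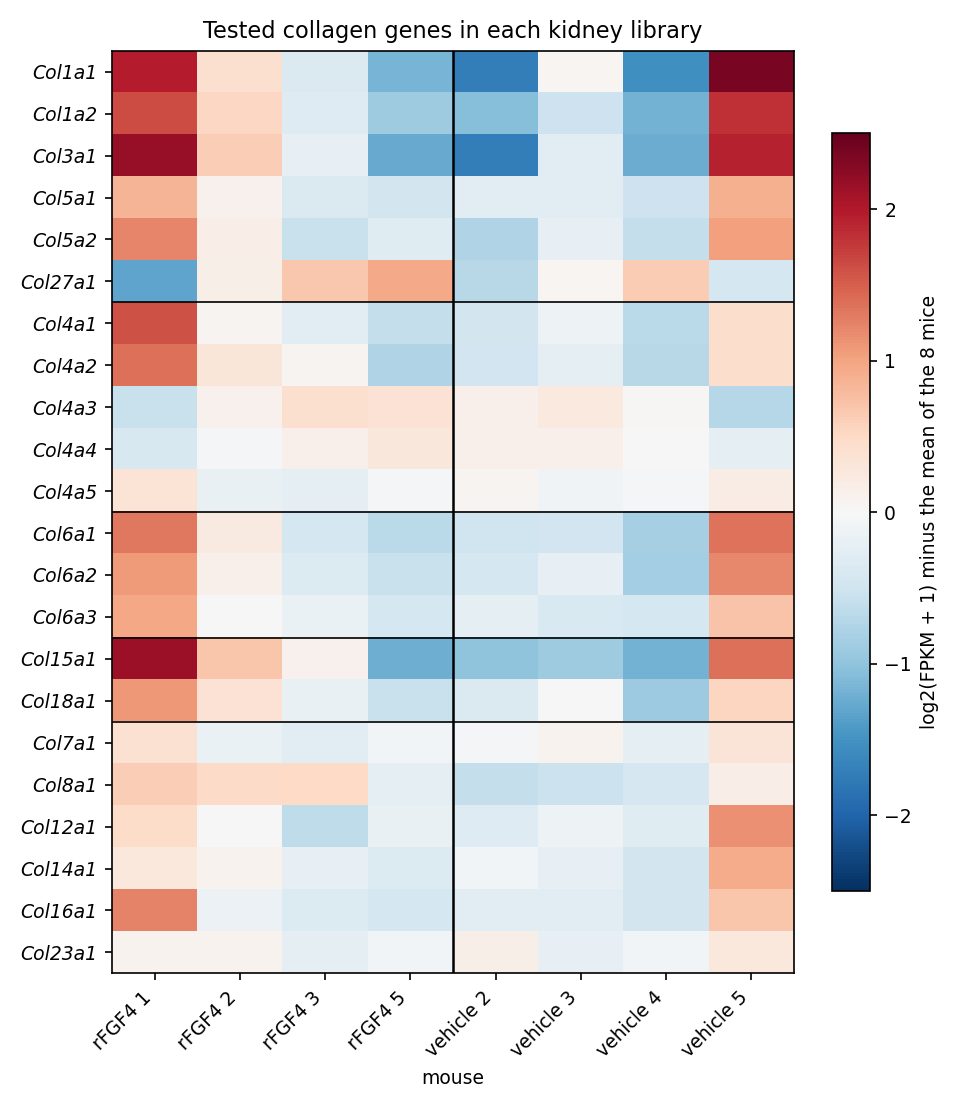
Heat map of the 22 tested collagen genes (vertical axis) in each of the 8 kidney libraries (horizontal axis), as log2(FPKM + 1) minus the mean of the 8 mice; black lines part the fibrillar, type IV, type VI, multiplexin and other genes, and the 2 groups. The columns of rFGF4 mouse 1 and vehicle mouse 5 are the reddest, being the 2 highest libraries for 17 of the 22 genes, while *Col4a3*, *Col4a4* and *Col27a1* are low in both and *Col8a1* is high in rFGF4 mice 1, 2 and 3.

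The spread between mice of a group was wider for collagens than for most genes. The within-group SD had a median of 0.66 over the 22 tested collagens and 0.27 over all tested genes on the log2 scale. The 95% interval of the difference reached a median of 0.93 to either side, against 0.43 over all tested genes, and lay entirely between -1 and 1 for 7 of the 22. The 2 highest libraries were rFGF4 mouse 1 and vehicle mouse 5 for 17 of 22 collagens (77.3%) and for 32.0% of all tested genes. Summed macrophage and summed fibroblast and mural cell markers were also highest in these 2 libraries, and summed lymphocyte markers in vehicle mouse 5. Their part in the collagen levels was not tested.

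Summed over all 44 genes, collagen mRNA came to 390, 198, 162 and 133 FPKM in rFGF4 mice 1, 2, 3 and 5, and to 121, 152, 114 and 297 FPKM in vehicle mice 2, 3, 4 and 5. The libraries were not scaled for these sums, and their median-ratio factors ran from 0.915 (vehicle mouse 2) to 1.26 (rFGF4 mouse 1). The mean sums were 221 ± 116 and 171 ± 85.7 FPKM (SD, n = 4 each), a difference smaller than either SD. Type IV was the largest class by this measure in every library, though in vehicle mouse 5 it stood at 98.2 FPKM against 97.4 FPKM for the fibrillar genes. It made up 45.7% to 54.0% of collagen FPKM with rFGF4 and 33.0% to 60.1% with vehicle. Fibrillar genes contributed 21.3% ± 1.14 with rFGF4 and 20.3% ± 9.44 with vehicle (SD, n = 4 each; 9.93% in vehicle mouse 2 and 32.8% in vehicle mouse 5), and the multiplexins 13.0% to 19.3% and 11.9% to 16.9%. Type VI contributed 5.38% to 8.35% with rFGF4 and 5.37% to 11.3% with vehicle, and FACIT genes 2.92% to 3.44% and 3.48% to 4.89%.

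**Figure D2:**
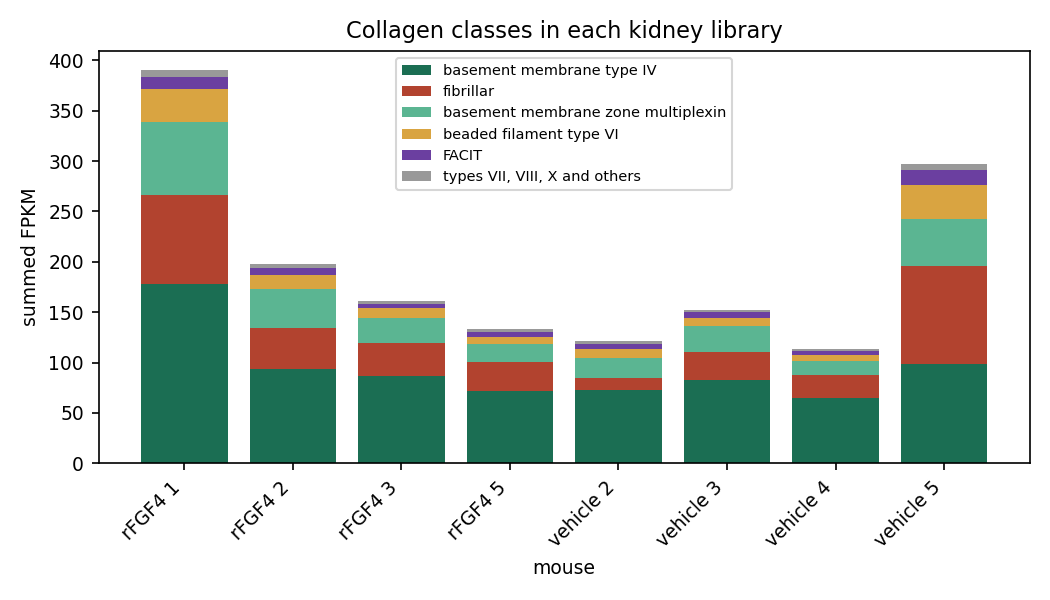
Stacked bars of the summed FPKM of each collagen class (vertical axis) in each of the 8 mice (horizontal axis). The totals of rFGF4 mouse 1 (390 FPKM) and vehicle mouse 5 (297 FPKM) exceed those of the other 6 mice (114 to 198 FPKM), and type IV is the largest block in every bar.

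Among the fibrillar genes, 6 of 11 were tested and 0 passed the threshold. *Col1a1*, the main chain of type I collagen, was at 26.1, 8.25, 4.45 and 2.13 FPKM in rFGF4 mice 1, 2, 3 and 5 and at 1.11, 6.22, 1.43 and 35.0 FPKM in vehicle mice 2, 3, 4 and 5. Every rFGF4-treated mouse lay within the vehicle range, where the highest level was 31.5 times the lowest. The log2 difference was 0.42 (SE 0.99, 95% interval -1.84 to 2.68; limma adjusted p = 0.959). It turned to -0.16 without rFGF4 mouse 1 and reached 1.28 without vehicle mouse 5.

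*Col1a2*, the partner chain of type I, was at 18.8, 8.17, 4.18 and 2.48 FPKM with rFGF4 and at 2.08, 3.53, 1.84 and 22.0 FPKM with vehicle. *Col3a1*, the only chain of type III collagen, was at 30.0, 9.43, 4.97 and 1.86 FPKM with rFGF4 and at 1.08, 4.64, 1.89 and 24.8 FPKM with vehicle. All 3 interstitial genes thus took similar places in each mouse: high in rFGF4 mouse 1 and vehicle mouse 5, low in rFGF4 mouse 5 and vehicle mice 2 and 4. The log2 differences were 0.46 (SE 0.76) for *Col1a2* and 0.66 (SE 0.93) for *Col3a1*, with limma adjusted p of 0.949 and 0.940. Without rFGF4 mouse 1 that of *Col1a2* was -0.0012, and without vehicle mouse 5 it was 1.15. Leaving out 1 mouse moved *Col3a1* to between 0.05 (without rFGF4 mouse 1) and 1.41 (without vehicle mouse 5), with 0.20 without vehicle mouse 2. The annotated exons of *Col3a1* overlap *Gm47302* on the same strand, so reads of the 2 cannot be told apart there. The ratio of *Col1a1* to *Col1a2* FPKM ran from 0.858 to 1.39 with rFGF4 and from 0.536 to 1.76 with vehicle, far less than the levels themselves. Together the 3 genes made up 4.86% to 19.2% of collagen FPKM with rFGF4 and 3.52% to 27.5% with vehicle.

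Type V collagen nucleates type I fibrils. Its chain *Col5a1* was at 3.43, 1.65, 0.922 and 0.787 FPKM with rFGF4 and at 1.06, 1.06, 0.725 and 3.53 FPKM with vehicle. *Col5a2* was at 4.55, 1.67, 0.601 and 0.914 FPKM with rFGF4 and at 0.407, 1.04, 0.576 and 3.79 FPKM with vehicle. Both were highest in rFGF4 mouse 1 and vehicle mouse 5, as the type I and III genes were, and the groups overlapped. The log2 difference was 0.07 (SE 0.38) for *Col5a1*, -0.01 after scaling the libraries by their median ratio, and 0.27 (SE 0.49) for *Col5a2*. Without rFGF4 mouse 1 they were -0.20 and -0.10, and without vehicle mouse 5 0.38 and 0.65. *Col5a1* exons overlap *2810430I11Rik* and *Gm13372* on the opposite strand, and the strandedness of the libraries is not stated.

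*Col27a1*, a fibril-forming chain best known from cartilage, ran differently from the other 5 tested fibrillar genes. It was at 3.38, 11.2, 16.5 and 20.2 FPKM in rFGF4 mice 1, 2, 3 and 5 and at 5.79, 10.4, 15.9 and 7.05 FPKM in vehicle mice 2, 3, 4 and 5. Its lowest library was rFGF4 mouse 1, where *Col1a1* and *Col3a1* were high, and its highest was rFGF4 mouse 5, where they were low. In 6 of the 8 libraries, all but rFGF4 mouse 1 and vehicle mouse 5, its FPKM was the highest of the fibrillar genes. The log2 difference was 0.23 (SE 0.51, 95% interval -0.93 to 1.39; limma adjusted p = 0.957), with overlapping groups. It was 0.71 without rFGF4 mouse 1 and -0.05 without rFGF4 mouse 5. The 5 fibrillar genes not tested were *Col2a1*, *Col5a3*, *Col11a1*, *Col11a2* and *Col24a1*. *Col5a3* was the highest of them, at 0.272 to 1.56 FPKM, and *Col2a1*, the cartilage collagen, was at 0 in 6 of the 8 libraries.

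Among the type IV chains, 5 of 6 were tested and 0 passed the threshold. *Col4a1* was at 79.7, 27.1, 21.3 and 16.6 FPKM in rFGF4 mice 1, 2, 3 and 5 and at 18.5, 23.5, 15.8 and 35.2 FPKM in vehicle mice 2, 3, 4 and 5. *Col4a2* was at 71.7, 33.9, 28.3 and 15.7 FPKM with rFGF4 and at 19.1, 22.7, 16.4 and 37.0 FPKM with vehicle. These were the highest of all collagen levels on average, with *Col18a1* next, and rFGF4 mouse 1 stood above every vehicle mouse for both genes. The other 3 rFGF4-treated mice lay within the vehicle range, except that *Col4a2* in rFGF4 mouse 5 was just below it. The ratio of the 2 chains' FPKM stayed between 0.754 and 1.11 in all 8 mice. The log2 differences were 0.40 (SE 0.47, 95% interval -0.67 to 1.48) and 0.50 (SE 0.43, 95% interval -0.50 to 1.49), with limma adjusted p of 0.930 and 0.921. Without rFGF4 mouse 1 they were -0.06 and 0.12, and *Col4a2* reached 0.72 without vehicle mouse 5 and 0.83 without rFGF4 mouse 5. The exons of the 2 genes overlap on opposite strands at their starts, and those of *Col4a2* also overlap *Gm15419*.

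The chains of the mature glomerular network varied less, with a highest level over the 8 mice of 2.34 (*Col4a3*), 1.66 (*Col4a4*) and 1.61 (*Col4a5*) times the lowest, against 5.04 for *Col4a1* and 4.56 for *Col4a2*. *Col4a3* was at 8.34, 13.9, 17.2 and 16.8 FPKM with rFGF4 and at 13.9, 15.4, 13.1 and 7.37 FPKM with vehicle. *Col4a4* was at 10.9, 14.1, 16.1 and 18.1 FPKM with rFGF4 and at 16.2, 16.1, 14.7 and 12.5 FPKM with vehicle. For both genes the 2 lowest libraries were rFGF4 mouse 1 and vehicle mouse 5, the same libraries in which *Col4a1* and *Col4a2* were highest. *Col4a5* was at 5.85, 3.81, 3.63 and 4.33 FPKM with rFGF4 and at 4.70, 4.14, 4.22 and 5.15 FPKM with vehicle. It was slightly higher, not lower, in those libraries.

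The log2 difference was 0.16 (SE 0.28, 95% interval -0.48 to 0.80) for *Col4a3*, -0.02 (SE 0.17, 95% interval -0.41 to 0.36) for *Col4a4* and -0.05 (SE 0.15, 95% interval -0.40 to 0.30) for *Col4a5*. The limma adjusted p was 0.953, 0.984 and 0.970. Each changed sign with 1 mouse left out, *Col4a3* to -0.05 without vehicle mouse 5, *Col4a4* to 0.11 without rFGF4 mouse 1 and *Col4a5* to 0.02 without rFGF4 mouse 3. For *Col4a4* and *Col4a5* the interval leaves out a change of 1.5-fold in either direction on this scale, whose limit is a log2 difference of 0.58. *Col4a3* exons overlap *C430014B12Rik* on the opposite strand. *Col4a6*, the chain of the basement membranes of Bowman's capsule and smooth muscle, was not tested and was at 1.66, 0.548, 0.257 and 0.399 FPKM with rFGF4 and at 0.390, 0.420, 0.352 and 1.01 FPKM with vehicle. Its highest libraries were again rFGF4 mouse 1 and vehicle mouse 5.

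As a share of type IV FPKM, *Col4a3*, *Col4a4* and *Col4a5* together made up 14.1%, 34.1%, 42.5% and 54.4% in rFGF4 mice 1, 2, 3 and 5 and 47.8%, 43.3%, 49.6% and 25.5% in vehicle mice 2, 3, 4 and 5. The share was 36.3% ± 17.0 with rFGF4 and 41.6% ± 11.1 with vehicle (SD, n = 4 each), a difference smaller than either SD. It was lowest in the 2 libraries with the highest summed macrophage markers, whose part in it was not tested. Summed podocyte markers, by contrast, were highest of all in rFGF4 mouse 1 (97.7 FPKM) and at 79.8 FPKM in vehicle mouse 5.

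**Figure D3:**
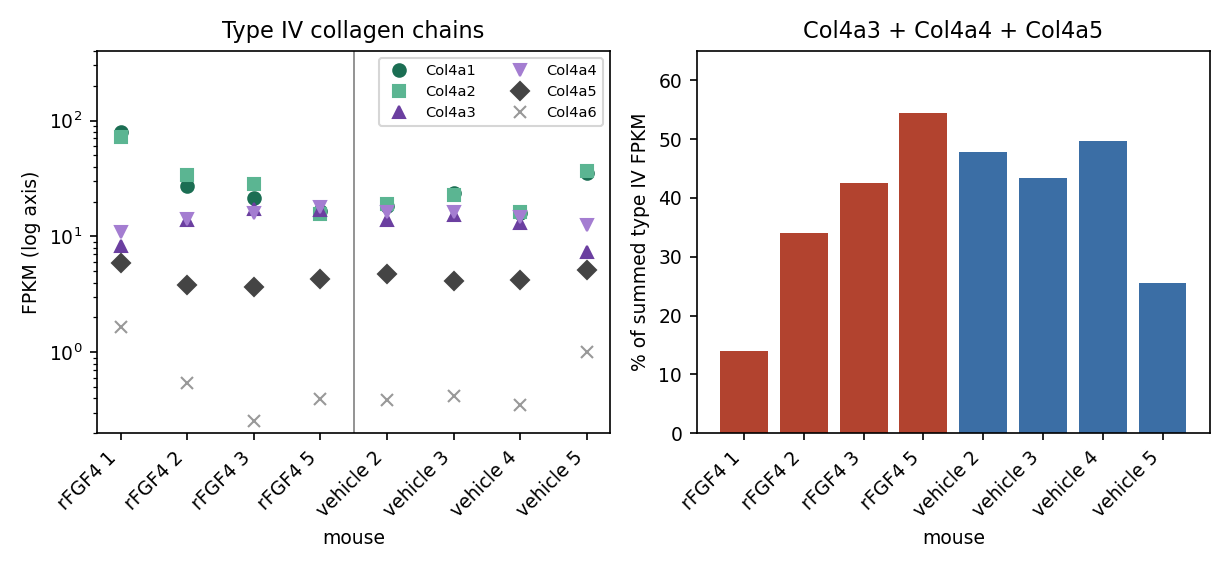
Left, FPKM of the 6 type IV chains on a log axis in each of the 8 mice; right, bars of the share of type IV FPKM contributed by *Col4a3*, *Col4a4* and *Col4a5* (red, rFGF4; blue, vehicle). *Col4a1* and *Col4a2* lie on top of each other and peak in rFGF4 mouse 1, where the share falls to 14.1%, while in rFGF4 mouse 5 all 4 major chains are between 15.7 and 18.1 FPKM and the share is 54.4%.

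Type VI collagen forms beaded filaments around cells, and 3 of its 6 genes were tested with 0 past the threshold. *Col6a1* was at 22.2, 9.95, 5.89 and 4.80 FPKM with rFGF4 and at 5.63, 5.70, 4.27 and 22.8 FPKM with vehicle. *Col6a2* was at 6.39, 2.89, 1.80 and 1.42 FPKM with rFGF4 and at 1.61, 2.09, 0.986 and 7.20 FPKM with vehicle. *Col6a3* was at 3.96, 1.51, 1.26 and 0.873 FPKM with rFGF4 and at 1.13, 0.931, 0.854 and 3.12 FPKM with vehicle. All 3 chains were highest in the same 2 libraries, and the groups overlapped. The ratio of *Col6a1* to *Col6a2* stayed between 2.72 and 4.33. The log2 differences were 0.22 (SE 0.57), 0.14 (SE 0.50) and 0.19 (SE 0.36), with limma adjusted p of 0.953 to 0.973, and each fell below 0 without rFGF4 mouse 1. *Col6a4*, *Col6a5* and *Col6a6* were at or below 0.134 FPKM in every library.

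The multiplexins lie at the outer face of basement membranes, and the C-terminal fragment of *Col18a1* is endostatin. *Col15a1* was at 20.4, 6.90, 4.29 and 1.09 FPKM with rFGF4 and at 1.42, 1.63, 1.14 and 11.6 FPKM with vehicle. rFGF4 mice 1, 2 and 3 exceeded vehicle mice 2, 3 and 4, and rFGF4 mouse 5 lay below all of the vehicle mice. Its log2 difference was 0.86 (SE 0.79, 95% interval -0.95 to 2.67; limma adjusted p = 0.921). It was 0.29 without rFGF4 mouse 1, 1.46 without vehicle mouse 5 and 1.41 without rFGF4 mouse 5. *Col18a1* was at 52.1, 31.4, 21.2 and 16.2 FPKM with rFGF4 and at 18.7, 24.1, 12.5 and 35.6 FPKM with vehicle, with overlapping groups. Its log2 difference was 0.36 (SE 0.41; limma adjusted p = 0.926), with 0.06 without rFGF4 mouse 1, 0.12 without vehicle mouse 4 and 0.60 without vehicle mouse 5 or rFGF4 mouse 5. *Col15a1* exons overlap *Gm12426* on the opposite strand.

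*Col8a1*, which encodes a short-chain collagen of vessel walls that mesangial and endothelial cells also make, was the 1 collagen past the threshold. It was at 1.85, 1.58, 1.60 and 0.590 FPKM in rFGF4 mice 1, 2, 3 and 5 and at 0.225, 0.279, 0.385 and 1.06 FPKM in vehicle mice 2, 3, 4 and 5. rFGF4 mice 1, 2 and 3 exceeded every vehicle mouse and all 4 exceeded vehicle mice 2, 3 and 4, so that the groups overlapped only through rFGF4 mouse 5 and vehicle mouse 5. The group means were 1.40 ± 0.556 and 0.488 ± 0.389 FPKM (SD, n = 4 each), a ratio of 2.88. On the log2(FPKM + 1) scale the difference was 0.69 (SE 0.24, 95% interval 0.15 to 1.23), with an unadjusted limma p of 0.0180, a limma adjusted p of 0.918 over all tested genes and a two-sided exact permutation p of 0.0571.

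Without rFGF4 mouse 1 and vehicle mouse 5 together, an alternative added after seeing the data, the difference was 0.77. That fit leaves out the 1 vehicle mouse whose level overlapped the rFGF4 group. Leaving out each mouse in turn gave 0.60 to 0.88, with *Col8a1* past the threshold each time. Unadjusted limma p over these fits ran from 0.0028 to 0.0494 with adjusted p of 0.382 or more. At a pseudocount of 0.1 the difference was 1.45. *Col8a1* thus differed from the 17 genes that were highest in both of those libraries: its next highest levels were in rFGF4 mice 3 and 2. The other short-chain genes, *Col8a2* and *Col10a1*, were at or below 0.329 FPKM and not tested. The levels of *Col8a1* are themselves low, and the fragments behind them are unknown.

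**Figure D4:**
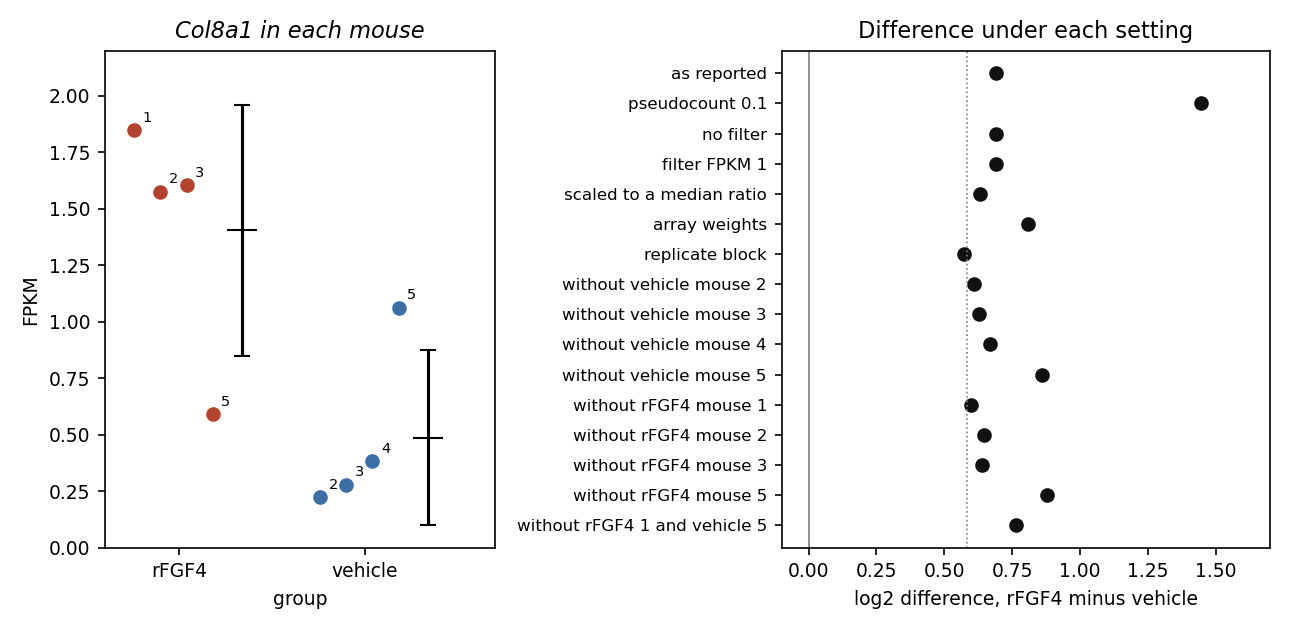
Left, *Col8a1* FPKM in each mouse (numbered points) with the group mean and SD; right, the log2 difference under each setting, with a grey line at 0 and a dotted line at a fold change of 1.5. The rFGF4 points lie between 0.590 and 1.85 FPKM and the vehicle points between 0.225 and 1.06 FPKM, and every setting keeps the difference above 0, from 0.57 to 1.45.

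Among the FACIT genes, which decorate the surface of fibrils, 3 of 9 were tested and 0 passed the threshold. *Col12a1* was at 1.61, 0.909, 0.235 and 0.672 FPKM with rFGF4 and at 0.518, 0.737, 0.548 and 3.21 FPKM with vehicle. *Col14a1* was at 3.72, 3.16, 2.41 and 2.12 FPKM with rFGF4 and at 2.74, 2.40, 1.88 and 6.44 FPKM with vehicle. *Col16a1* was at 6.30, 1.80, 1.45 and 1.29 FPKM with rFGF4 and at 1.54, 1.58, 1.24 and 3.99 FPKM with vehicle. Vehicle mouse 5 was highest for *Col12a1* and *Col14a1* and rFGF4 mouse 1 for *Col16a1*, and the groups overlapped for all 3. The log2 differences were -0.18 (SE 0.37), -0.10 (SE 0.30) and 0.16 (SE 0.41), with limma adjusted p of 0.953 to 0.971, and the sign changed without vehicle mouse 5 for the first and second gene and without rFGF4 mouse 1 for *Col16a1*. Of the 6 untested FACIT genes, *Col20a1* was the highest, at 0.285 to 0.736 FPKM, and *Col9a1*, a cartilage collagen, was listed at 0 in all 8 libraries.

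The remaining tested members were *Col7a1*, the anchoring fibril collagen of skin, and the transmembrane *Col23a1*, both under 1.3 FPKM in every library. Their log2 differences were -0.06 (95% interval -0.46 to 0.35) and -0.06 (95% interval -0.39 to 0.26). The transmembrane *Col13a1*, *Col17a1* and *Col25a1* and the ungrouped *Col26a1* and *Col28a1* were not tested. *Col17a1*, the hemidesmosome collagen of stratified epithelium, reached 1.63 FPKM in vehicle mouse 5 and was listed at 0 in vehicle mouse 2.

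**Figure D5:**
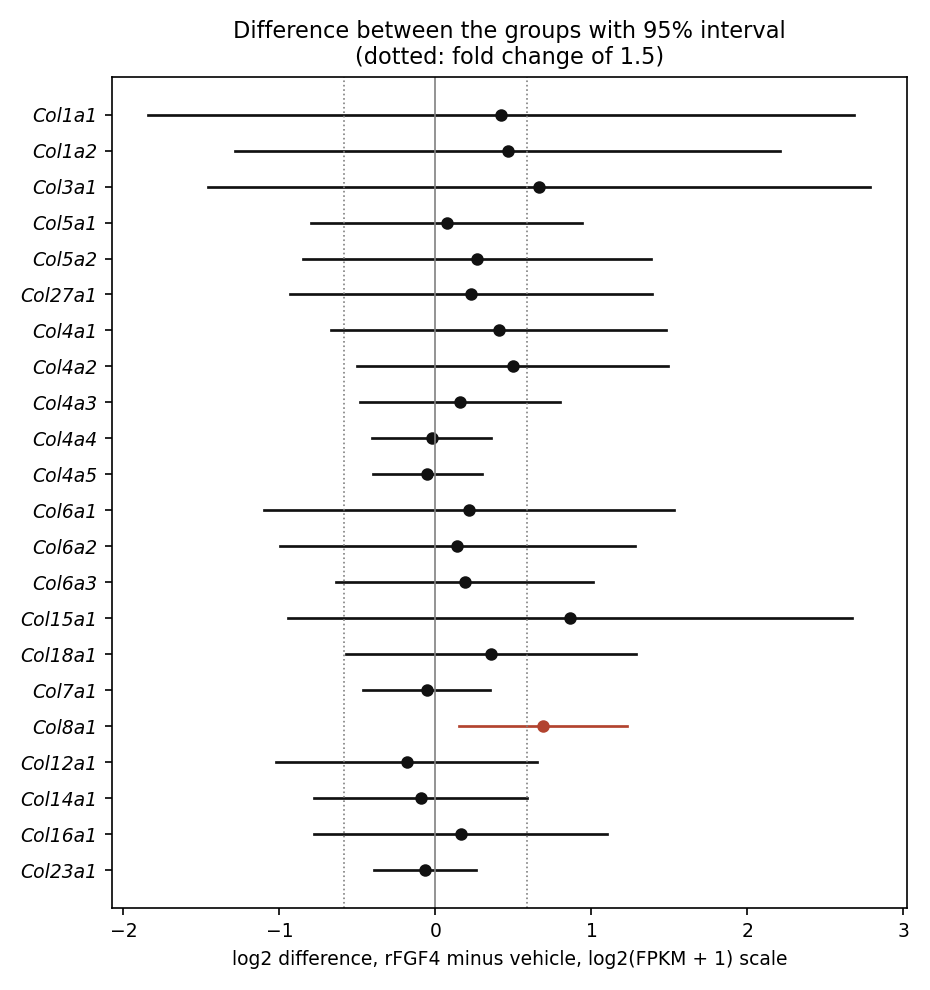
The log2 difference (horizontal axis, rFGF4 minus vehicle, log2(FPKM + 1) scale) of each of the 22 tested collagen genes (vertical axis) with its 95% interval; dotted lines mark a fold change of 1.5. The interval of *Col8a1* (red), from 0.15 to 1.23, is the only one that leaves out 0, and those of *Col1a1* and *Col3a1* are among the widest, while those of *Col4a4*, *Col4a5* and *Col23a1* are among the narrowest.

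The genes that make, assemble, sense and remove collagen were taken from 5 lists of 71 genes, of which 57 were tested. Of these, 0 passed the threshold as higher (1.09% of all tested genes) and 1 as lower (0.436% of all tested genes), and 0 had an adjusted p under 0.05. The median log2 difference was 0.25, with 43 genes above 0 and 14 below (75.4% above 0), beside a median of 0.09 and 67.1% over all tested genes. The gene past the threshold was *Fmod* (fibromodulin), a proteoglycan that binds type I fibrils and limits their thickness. It was at 0.427, 1.15, 0.546 and 1.74 FPKM in rFGF4 mice 1, 2, 3 and 5 and at 2.30, 1.64, 1.40 and 3.59 FPKM in vehicle mice 2, 3, 4 and 5, the groups overlapping only through rFGF4 mouse 5. The log2 difference was -0.72 (SE 0.27; unadjusted limma p = 0.0292, limma adjusted p = 0.918), and the two-sided exact permutation p was 0.0857. *Fmod* no longer passed without vehicle mouse 2, without vehicle mouse 5, without rFGF4 mouse 1, without rFGF4 mouse 3 or with array weights, where *Loxl2*, *Nid1* and *Thbs1* passed, all higher. Without rFGF4 mouse 1 and vehicle mouse 5 together, *Dcn*, *Lum* and *Mmp2* passed in its place, all higher.

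In chain modification and folding, 20 of 21 genes were tested and 0 passed the threshold. *Mia3* (TANGO1), which loads procollagen into carriers at the endoplasmic reticulum, was the 1 gene of all 57 whose groups did not overlap (3.33% of all tested genes). It was at 10.7, 10.8, 11.0 and 10.2 FPKM with rFGF4 and at 9.08, 8.26, 9.43 and 9.78 FPKM with vehicle, so the whole gap between the groups was smaller than 1 FPKM. Its log2 difference was 0.21 (SE 0.10; unadjusted limma p = 0.0705), with a two-sided exact permutation p of 0.0286, the smallest that this design allows.

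In the other lists the text gives the gene with the smallest p. For propeptide removal and cross-linking (10 of 16 tested, 0 past the threshold) it was *Loxl2*, a lysyl oxidase that cross-links type IV collagen, at 1.53 to 7.81 FPKM with rFGF4 and 1.15 to 4.89 FPKM with vehicle and a log2 difference of 0.65 (SE 0.43; limma adjusted p = 0.918). For receptors and uptake (7 of 11 tested, 0 past the threshold) it was *Itgb1*, the common beta chain of the collagen-binding integrins, at 42.1 to 111 FPKM and 38.4 to 67.0 FPKM and a log2 difference of 0.47 (SE 0.30; limma adjusted p = 0.918). For degradation (8 of 10 tested, 0 past the threshold) it was *Timp1*, an inhibitor of matrix metalloproteinases, at 1.22 to 69.4 FPKM and 0.491 to 19.8 FPKM and a log2 difference of 1.46 (SE 1.19; limma adjusted p = 0.920). The 3 genes were all highest in rFGF4 mouse 1, and in each the groups overlapped. The fibril-associated list (12 of 13 tested) held *Fmod*, and shares *Dcn* and *Lum* with the fibroblast and mural cell markers.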

How the data were processed

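Poly(A) RNA of 8 mouse kidneys was sequenced as paired ends, and FPKM per gene, which the authors computed from StringTie assemblies merged by gffcompare, were deposited in 1 table. The submitters' processing notes list Bowtie 0.12.2, HISAT2 2.0, StringTie 1.3.0 and build mm8, without saying what each was used for. The table also holds the authors' edgeR fold changes, p-values and q-values, which are their own comparison and were not used, and 0 columns could not be matched to a sample. The smallest value, 0.0001, was read as 0.

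The authors' edgeR needs counts. Here log2(FPKM + 1) was compared with limma 3.58.1 in R 4.3.3, without covariates and with a prior variance that followed mean expression (trend). The plan had named a fit without that trend. Adjustment was by Benjamini-Hochberg over all 15150 tested genes, and exact permutation tests for named genes used SciPy 1.17.1. The study's threshold was applied as p under 0.05 with a change of at least 1.5-fold. FPKM steps between libraries gave their relative depth. Positions came from GENCODE M21 on GRCm38, which held 99.5% of all identifiers and all 44 collagen identifiers. The build named in the notes differs, so coordinates describe the annotation and not the alignment. No protein table was used. Python 3.11.15 and matplotlib 3.10.9 were used for summaries and plots.

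Named collagens were the tested members with a mean of at least 1 FPKM, those with p under 0.05 or groups that did not overlap, and the type IV chains. *Col7a1*, *Col23a1* and the untested members named were added to account for every class. Named genes of the other lists were those past the threshold or without overlap, and otherwise the smallest p of a list; *Dcn*, *Lum*, *Mmp2*, *Nid1*, *Thbs1*, *Car3* and the smooth muscle, urothelial and tubule markers were named after their values were seen. The collagen genes, the classes and all lists were chosen with earlier results of these data known. Alternatives were a pseudocount of 0.1, no filter, a filter at 1 FPKM, array weights, scaling by the median ratio, each mouse left out and the mouse number as a block. The fit without rFGF4 mouse 1 and vehicle mouse 5 was added after seeing the data. The procedure was run on simulated data with independent errors, which lacked the shared pattern of rFGF4 mouse 1 and vehicle mouse 5. Count-based alternatives were not run.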

Additional observations from a re-analysis of the deposited data

Results flagged for a closer look

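In vehicle mouse 5 the level of 3 collagen genes and the sum of 4 classes lay far from the other 3 vehicle mice, judged by the gap to the nearest mouse as a share of the range of the 4. For the genes the gap was taken on the log2(FPKM + 1) scale. The share was 0.868 for *Col12a1* (3.21 FPKM against 0.518 to 0.737), 0.883 for *Col15a1* (11.6 FPKM against 1.14 to 1.63) and 0.841 for *Col6a1* (22.8 FPKM against 4.27 to 5.70). For summed FPKM it was 0.904 for type VI (33.5 against 6.12 to 8.74), 0.878 for the short-chain network types (1.47 against 0.264 to 0.411), 0.879 for FACIT (14.5 against 4.03 to 5.30) and 0.896 for the transmembrane types (3.51 against 1.07 to 1.33). These were 7 of 58 groups of 4 mice examined, where chance gives about 1 in 20, or 2.9. The class sums and the genes within them are not separate evidence. All 7 were in vehicle mouse 5, which also had the highest summed markers of macrophages (1728 FPKM), fibroblasts and mural cells (175 FPKM) and lymphocytes (113 FPKM), and their part was not tested.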

How the results depend on the processing

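*Col8a1* was the 1 collagen gene past the study's threshold under 14 of the 15 alternatives, and the log2 difference of *Col15a1* stayed above 0 in all of them but ranged from 0.041 to 1.46. The number of all tested genes past the threshold was 231 as reported, 348 at a pseudocount of 0.1, 490 with array weights and 187 to 575 with 1 mouse left out. Scaling to a common median ratio gave 181, of which 92 were higher and 89 lower, in place of 165 and 66. Of the 57 tested pathway genes, 1 passed as reported (*Fmod*, lower), 3 others with array weights (all higher), 3 without rFGF4 mouse 1 and vehicle mouse 5, and 0 to 6 with 1 mouse left out. The log2 difference of *Col5a1* was -0.012 after scaling, that of *Col14a1* 0.093 with array weights and 0.091 without both mice, and that of *Col4a4* 0.028 without both mice. With 1 mouse left out, differences that changed sign ranged from -0.16 to 1.28 (*Col1a1*), -0.0012 to 1.15 (*Col1a2*), -0.20 to 0.38 (*Col5a1*), -0.10 to 0.65 (*Col5a2*), -0.053 to 0.71 (*Col27a1*), -0.060 to 0.67 (*Col4a1*), -0.054 to 0.37 (*Col4a3*), -0.12 to 0.11 (*Col4a4*), -0.17 to 0.016 (*Col4a5*), -0.19 to 0.70 (*Col6a1*), -0.19 to 0.57 (*Col6a2*), -0.11 to 0.45 (*Col6a3*), -0.37 to 0.16 (*Col12a1*), -0.26 to 0.20 (*Col14a1*) and -0.22 to 0.42 (*Col16a1*), and the median of the 22 collagens from -0.10 to 0.51. Those that kept their sign ranged from 0.049 to 1.41 (*Col3a1*), 0.12 to 0.83 (*Col4a2*), 0.29 to 1.46 (*Col15a1*), 0.058 to 0.60 (*Col18a1*) and 0.60 to 0.88 (*Col8a1*). The ends of these ranges mostly came from leaving out rFGF4 mouse 1 or vehicle mouse 5.

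Mice of the 2 groups shared the numbers 2, 3 and 5, but same-numbered mice did not deviate together (correlations across genes of -0.23, -0.16 and -0.39), so the numbers were not taken as pairs. With the replicate block, which can use only those 3 numbers, 1 collagen gene passed, *Col27a1* (0.95), and *Col8a1* (0.57) did not. The median was -0.24, and differences that changed sign were -0.60 (*Col1a1*), -0.32 (*Col1a2*), -0.26 (*Col3a1*), -0.36 (*Col5a1*), -0.25 (*Col5a2*), -0.21 (*Col4a1*), -0.028 (*Col4a2*), 0.10 (*Col4a4*), -0.42 (*Col6a1*), -0.44 (*Col6a2*), -0.23 (*Col6a3*), -0.18 (*Col18a1*) and -0.35 (*Col16a1*). With fragment counts unknown, counting error of the lower collagens cannot be separated from the spread between mice.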
